A study of Mus musculus with 2 samples.

Results

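The SOCS family of cytokine feedback inhibitors was examined here through its 8 genes, Cish and Socs1 to Socs7. They were chosen by name, as 8 of the 53715 genes counted, and none was chosen for its measured values. Their unique molecular identifiers (UMIs, 1 per captured RNA molecule) were summed in 2 classes of cell barcode: those with an Ncr1 UMI, and those of a tumour-like cluster. Ncr1 encodes NKp46, a receptor of natural killer (NK) cells.

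CT26 colon carcinomas of mice were dissociated, and NK cells were sorted from them for RNA sequencing of single cells on a microwell chip. The sort kept cells positive for CD45.2 and NKp46 and negative for CD3. The sample titles give the treatments as IL-15SA+IL-21Fc (the combination) and IL-15SA. In both groups the tumour line was labelled b2m-/-, which names loss of a component of MHC class I, and the cells of a group were pooled into 1 library. Strain, age, dose, time of treatment and number of animals are not given in the labels. With 1 library per group there was no test and no replicate check. Intervals are at 95% and cover counting error alone.

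In all, 35336180 UMIs were counted over 12435 barcodes of the combination and 30893388 UMIs over 8386 barcodes of IL-15SA. After filters and removal of likely doublets, 11808 combination barcodes and 7967 IL-15SA barcodes were left, and 60 barcode sequences occurred in both libraries. Clustering gave 8 clusters. Cluster 6, led by Saa3, Dcn and Lrp1, was tumour or stroma-like: 18 of 20 such markers were at least 5 times their median over clusters. It held 1419 combination barcodes (12.02% of those left) and 603 IL-15SA barcodes (7.57%). Its leading gene Saa3 came mostly from the combination, with 409 UMIs there and 8 in IL-15SA, while Dcn had 403 and 129 in the same order. The Ncr1-positive class was the barcodes of the other clusters with at least 1 Ncr1 UMI, 9703 in the combination library and 6969 in the IL-15SA library. Their median depth was 2442 UMIs per cell in the combination library and 3217 in the IL-15SA library. Levels are CPM, a gene's share of all UMIs summed over the class, scaled to a total of 1e+06.

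The labels of both classes were only partly borne out. All 15 NK markers had UMIs in the Ncr1-positive barcodes, but also in the tumour-like barcodes, so their presence does not set the classes apart. In Ncr1-positive barcodes Cd3e was at 0.76 CPM in the combination and 1.25 CPM in IL-15SA. Other T cell genes were higher: Cd3g was at 121 CPM in the combination and 107 CPM in IL-15SA. The 11 T cell markers summed to 1775 CPM in the combination and 1610 CPM in IL-15SA, with 1 of them at 0 UMIs in each library. Clusters 3 and 4 held T cell, MHC class II and innate lymphoid genes such as Cd3g, H2-Aa and Il7r among their leading genes, so clusters are given by number. The tumour-like barcodes still held Ncr1, at 421 CPM in the combination and 616 CPM in IL-15SA, although the sort should have removed cells without NKp46. They also held B2m, the gene the tumour line is labelled as lacking, at 4537 CPM in the combination and 4701 CPM in IL-15SA. Which bases of B2m were deleted is not given, so this level does not tell tumour cells from host cells. Il2rg, the receptor chain shared by IL-15 and IL-21, had 0 UMIs in both classes, so a 0 in these files can come from how reads were assigned to genes.

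SOCS proteins are made in response to cytokines and switch the same signal off. Each joins an SH2 domain, which binds phosphorylated receptors or kinases, to a SOCS box, which recruits elongins and a cullin to form a ubiquitin ligase. IL-15 signals through JAK1 and JAK3 mainly to STAT5, and IL-21 mainly to STAT3. Cish is a classical STAT5 target that restrains the response of NK cells to IL-15, Socs1 is induced strongly by interferon, and Socs3 is a classical STAT3 target.

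The deposited counts use mm10, in which GENCODE M21 annotates all 8 members as protein-coding genes. Cish lies on chromosome 9 (107296026 to 107302784, plus strand), Socs1 on chromosome 16 (10782240 to 10785536, minus strand), Socs2 on chromosome 10 (95385362 to 95417180, minus strand) and Socs3 on chromosome 11 (117966079 to 117970047, minus strand). Socs4 lies on chromosome 14 (47276931 to 47296102, plus strand) and Socs5 on chromosome 17 (87107679 to 87137839, plus strand), while Socs7 lies on chromosome 11 (97362551 to 97398542, plus strand). Cish shares bases with Gm17040 and Gm17041 on the opposite strand. Gm17040 had 44 UMIs in the combination and 48 in IL-15SA, and Gm17041 had 6 and 13 in the same order. Whether counting used strand is not given, so a small part of these reads cannot be assigned with certainty.

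Promoters, taken as 250 bases before to 50 after the RefSeq start on GRCm38.p6, were given for 4 of the 8 members: Cish, Socs1, Socs3 and Socs4. They were searched on both strands for TTCNNNGAA, the core that STAT factors bind, which reads the same on both strands and occurs in 8.30% of 32851 promoters. Cish held it at 2 places and Socs3 at 1 place, while Socs1 and Socs4 had no match in this window. The stretches around the matches are shown because these genes moved differently between the libraries, with the matches in capitals.
Cish, chr9:107296654-107296683, plus strand: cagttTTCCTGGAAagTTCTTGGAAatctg
Socs3, chr11:117969501-117969530, minus strand: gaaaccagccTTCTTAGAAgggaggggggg
With the start counted as 0, the Cish matches covered bases 0 to 8 and 11 to 19, inside an annotated exon and untranslated region of Cish. The Socs3 match covered bases -154 to -146, within the gene as GENCODE draws it but in no exon of it. The stricter TTCCNGGAA occurs in 1.15% of promoters, and of the 4 members searched only Cish held it.

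A second motif, GAAANNGAAA, which factors of the interferon response bind, was searched after the levels by cluster had been seen. It occurs in 3.44% of promoters on either strand. Among the 4 promoters it was found in Socs1, as 2 matches that share bases, from -83 to -74 and from -77 to -68. Socs3 and Socs4 had no match, although in the combination they too were highest in the interferon cluster described further on, at 137 CPM and 24.7 CPM. The 250 bases before the Socs1 start are shown with its matches in capitals, because Socs1 was highest in that cluster in both libraries.
Socs1, chr16:10785537-10785786, minus strand: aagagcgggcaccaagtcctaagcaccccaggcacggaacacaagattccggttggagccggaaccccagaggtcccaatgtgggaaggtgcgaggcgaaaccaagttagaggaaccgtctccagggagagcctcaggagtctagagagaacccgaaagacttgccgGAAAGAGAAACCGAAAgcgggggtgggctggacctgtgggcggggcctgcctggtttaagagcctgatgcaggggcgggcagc
No GENCODE gene overlaps that stretch. A match in any of these windows is a description of the letters and not evidence that a factor was bound.

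In Ncr1-positive barcodes Cish and Socs1 were lower in the combination, Socs3 and Socs5 were higher, and the intervals of the remaining members included equality. Summed over the family, the level was 300.8 CPM in the combination and 325.8 CPM in IL-15SA, a ratio of 0.923 (0.896 to 0.952). A member was called when its level, with 1 CPM added, differed by 1.5-fold. Of the 7 members measured at 5 CPM or more in a library, 0 were called higher and 0 lower, against 2.23% of 9179 genes called higher and 0.501% called lower. Intervals lay above 1 for 2 members and below 1 for 2, against 22.6% and 22.9% of all measured genes, so intervals off 1 were common in these data.

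Cish, the inhibitor tied to IL-15 signalling, had 458 UMIs in the combination and 627 in IL-15SA. This was 16.5 CPM (15.1 to 18.1) in the combination and 23.7 CPM (21.9 to 25.7) in IL-15SA, and the intervals did not overlap. The ratio of the combination to IL-15SA was 0.698 (0.617 to 0.788), the lowest among the 8 members. The log2 ratio was negative in all 14 alternative settings, between -0.66 and -0.41.

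Socs1, which blocks JAK kinases directly through a short inhibitory region, was at 150 CPM (145 to 155) in the combination and 177 CPM (172 to 183) in IL-15SA. The ratio was 0.845 (0.810 to 0.881), from 4148 UMIs in the combination and 4690 in IL-15SA. It was the most deeply counted member in this class, and its log2 ratio stayed negative in all 14 settings, between -0.29 and -0.18. Socs1 and Cish were thus both lower, Cish by more.

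Socs3, the third member with a direct tie to these cytokines and the other carrier of the kinase inhibitory region, was at 87.8 CPM (84.3 to 91.3) in the combination and 80.5 CPM (77.1 to 84.0) in IL-15SA. The ratio was 1.09 (1.03 to 1.16). This difference was small and moved with the make-up of the libraries: with each cluster given the same weight in both libraries the log2 ratio was 0.03, against 0.13 unweighted, and with the same weights of 4 ranges of UMIs per cell it was 0.02.

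Socs2, best known for limiting growth hormone signalling, was at 13.8 CPM (12.5 to 15.3) in the combination and 14.0 CPM (12.6 to 15.5) in IL-15SA, a ratio of 0.989 (0.855 to 1.14). Socs4, whose product has been linked to epidermal growth factor receptor turnover, was at 16.7 CPM in the combination and 16.0 CPM in IL-15SA (1.05, 0.914 to 1.20). For both genes the interval included 1, and differences within its bounds could not be seen at this depth.

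Socs5, also linked to that receptor, was at 7.19 CPM (6.23 to 8.26) in the combination and 4.46 CPM (3.69 to 5.35) in IL-15SA. The ratio of 1.61 (1.28 to 2.04) was the highest in the family and rested on 199 UMIs in the combination and 118 in IL-15SA. It was not called, because 1 CPM was added before the 1.5-fold threshold. After thinning each cell to 1000 UMIs the log2 ratio was 0.17, against 0.69 with all UMIs, and with the same weights of the UMI ranges it was 0.35.

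The tumour markers moved in the same direction as Socs5 in these barcodes. Their 20 genes summed to 271 CPM in the combination and 150 CPM in IL-15SA, with 0 of them at 0 UMIs in the combination and 3 in IL-15SA. Without barcodes that held a UMI of 6 tumour or stroma markers, the Socs5 log2 ratio was 0.64. The 9 markers of type 1 innate lymphoid cells also summed higher, to 1158 CPM in the combination and 758 CPM in IL-15SA, and the 10 dendritic cell markers summed to 192 CPM and 104 CPM in the same order, with 2 of them at 0 UMIs in each library. The part of these transcripts in the members' ratios was not tested.

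Socs6, a partner of the KIT receptor and of insulin signalling, was at 4.99 CPM in the combination and 5.94 CPM in IL-15SA (0.840, 0.663 to 1.06). Socs7, which binds insulin pathway adaptors, was at 3.94 CPM in the combination and 3.86 CPM in IL-15SA (1.02, 0.772 to 1.35). Socs7 was the member under 5 CPM in both libraries. Socs6 lies on chromosome 18 (88665224 to 88927481, minus strand), where it shares bases with 3 pseudogenes. The counts of both genes, between 102 and 157 UMIs per library, allow no finer statement.

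**Figure D1:**
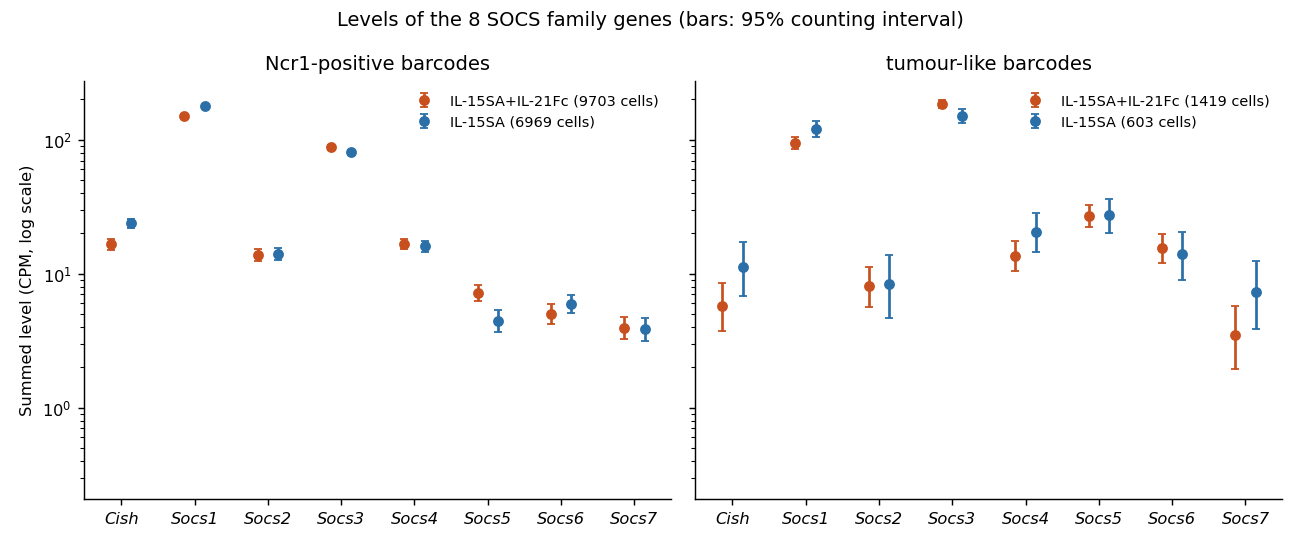
Level of each of the 8 members in CPM (log scale) in Ncr1-positive barcodes (left) and tumour-like barcodes (right); points are the 2 libraries and bars the 95% counting interval. In Ncr1-positive barcodes Cish was at 16.5 CPM in the combination and 23.7 CPM in IL-15SA with separate intervals, and Socs3 was higher in tumour-like than in Ncr1-positive barcodes of both libraries.

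The balance within the family was also compared, since ratios of UMIs within the same cells do not depend on the library total. There were 5.30 Socs3 UMIs per Cish UMI in the combination and 3.39 in IL-15SA, a ratio between libraries of 1.56 (1.36 to 1.79). It was above 1 in 6 of 6 clusters, from 1.09 (0.687 to 1.70) in cluster 5 to 2.13 (1.05 to 4.29) in cluster 7, with the interval above 1 in 5. There were 9.06 Socs1 UMIs per Cish UMI in the combination and 7.48 in IL-15SA, a ratio of 1.21 (1.06 to 1.38), which was above 1 in 5 of 6 clusters with the interval above 1 in 2. Socs2 UMIs per Cish UMI were 0.834 in the combination and 0.589 in IL-15SA, a ratio of 1.42 (1.17 to 1.72). That ratio was above 1 in 4 of 6 clusters, with the interval above 1 in 2. Each ratio to Cish also carries the lower Cish level in the combination, so it is not particular to Socs3. Socs3 UMIs per Socs1 UMI were 0.586 in the combination and 0.454 in IL-15SA, a ratio of 1.29 (1.20 to 1.39), above 1 in 6 of 6 clusters with the interval above 1 in 3. Socs3 thus made up 29.2% of the family's UMIs in the combination and 24.7% in IL-15SA, while Cish made up 5.50% and 7.28% in the same order.

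Most cells held no UMI of any given member, so shares of cells were read after thinning each cell to 1000 UMIs, at which depth no Ncr1-positive cell was dropped. Cish was then detected in 1.76% of combination cells (1.51 to 2.04) and 2.40% of IL-15SA cells (2.05 to 2.78). Without thinning it was detected in 4.05% of combination cells and 7.46% of IL-15SA cells, which also carries the difference in depth. Socs1 was detected in 13.8% of thinned combination cells and 15.9% of thinned IL-15SA cells, and in 28.7% and 39.4% without thinning.

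Socs3 changed sides with depth. It was detected in 8.62% of thinned combination cells (8.06 to 9.19) and 7.79% of thinned IL-15SA cells (7.17 to 8.45), but in 18.9% and 21.7% of the cells without thinning. The intervals of the thinned shares overlapped. The other 5 members were detected in between 0.36% and 1.71% of thinned cells in either library. No class of cells known to lack these genes was present to set a background for free RNA, so a share is not read as a share of expressing cells.

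A thinned cell seldom showed more than 1 member: 2.59% of combination cells and 3.09% of IL-15SA cells held exactly 2, and 74.1% and 72.8% held none. Among thinned combination cells with a Socs1 UMI 10.6% (8.98 to 12.3) also held Socs3, against 8.30% (7.72 to 8.91) of those without. Among thinned IL-15SA cells with a Socs1 UMI 9.29% (7.64 to 11.2) held Socs3, against 7.51% (6.85 to 8.21) of those without. These differences are small, and depth above 1000 UMIs was removed by the thinning.

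The states of the Ncr1-positive cells were 6 clusters with at least 100 cells in each library, made without the 8 members among the genes used for clustering. Cluster 1 was led by Gzmg, Gzmf and Gzmd, granzymes of activated killer cells, and cluster 2 by the cell cycle genes Nusap1, Esco2 and Hist1h2ab. Cluster 3 was led by Hspb1, Cd3d and Cd3g, and cluster 4 by Cd74, Krt83 and H2-Aa. Cluster 5 was led by Cma1, S1pr5 and Ccl5, and cluster 7 by Slfn5, Ifit2 and Ifit3, which interferon induces. Levels by cluster are a description.

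Cish was highest in cluster 4 of both libraries, at 30.2 CPM (25.2 to 35.9) in the combination and 44.5 CPM (37.0 to 53.2) in IL-15SA. It was lowest in cluster 2 of the combination, at 11.4 CPM, and in cluster 3 of IL-15SA, at 18.9 CPM. In the combination each cluster's interval overlapped that of its neighbour in the order 4, 7, 5, 1, 3 and 2, while cluster 4 was clear of clusters 1, 3 and 2 and cluster 5 of clusters 3 and 2. The ratio of the combination to IL-15SA was below 1 in 6 of 6 clusters, and its interval lay below 1 in 5 of them. The lowest, 0.505 (0.269 to 0.951) in cluster 7, rested on 23 UMIs in the combination and 22 in IL-15SA. The highest was 0.875 (0.590 to 1.31) in cluster 5. In the cell cycle cluster the ratio was 0.526 (0.406 to 0.678).

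Socs1 was highest in the interferon cluster 7, at 245 CPM (217 to 275) in the combination and 248 CPM (208 to 293) in IL-15SA. In the combination this stood apart from the next level, 173 CPM in cluster 4, whereas in IL-15SA cluster 4 was at 233 CPM and overlapped it. The ratio was below 1 in 6 of 6 clusters, from 0.744 (0.668 to 0.828) in cluster 4 to 0.988 (0.802 to 1.22) in cluster 7. Its interval lay below 1 in 4 clusters, and in clusters 3 and 7 it included 1.

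Socs3 had 2 high clusters. In the combination it was at 137 CPM (117 to 161) in cluster 7 and 133 CPM (122 to 145) in cluster 4, and between 74.9 and 78.7 CPM in the remaining 4 clusters. In IL-15SA it was at 128 CPM (99.4 to 161) in cluster 7 and 146 CPM (132 to 161) in cluster 4, and between 68.1 and 79.1 CPM in the remaining 4. Within clusters the ratio between libraries ran from 0.911 to 1.10, above 1 in 4 and below 1 in 2, and no interval excluded 1. Socs3 levels thus differed more between clusters than between the libraries.

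Socs2 had another pattern. In the combination it was highest in cluster 5, at 26.3 CPM (21.2 to 32.3), apart from the next level of 16.6 CPM in cluster 4. In IL-15SA cluster 4 was at 28.0 CPM (22.0 to 35.0) and cluster 5 at 24.2 CPM (17.7 to 32.4). The interval of the ratio between libraries excluded 1 in cluster 4 alone, at 0.595 (0.424 to 0.834), while cluster 7 had a lower ratio of 0.483 (0.181 to 1.29). The lowest levels were in cluster 1, at 7.95 CPM in the combination and 9.90 CPM in IL-15SA.

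Socs5 was higher in the combination in 6 of 6 clusters, with ratios from 1.06 to 2.66 and the interval above 1 in clusters 1 and 3. Socs4, Socs6 and Socs7 showed no cluster in which the interval of the ratio excluded 1. Socs4 ran from 13.1 CPM in cluster 1 to 24.7 CPM in cluster 7 of the combination, and in IL-15SA it was also lowest in cluster 1, at 13.0 CPM. Socs6 had 0 UMIs in cluster 7 of IL-15SA, and its upper bound there was 6.72 CPM.

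**Figure D2:**
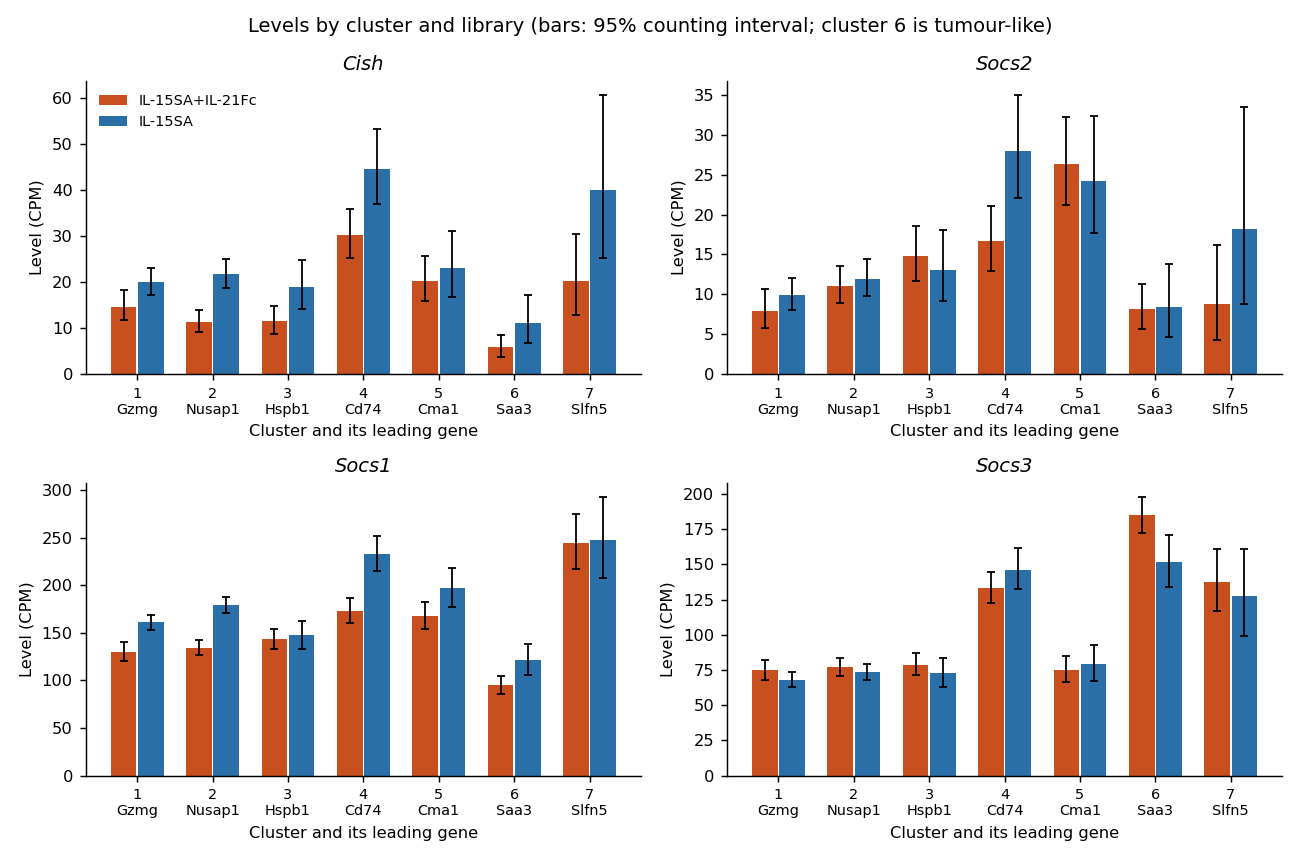
Levels of Cish, Socs2, Socs1 and Socs3 in CPM by cluster, with the cluster's leading gene under its number and the combination bar left of the IL-15SA bar; error bars are 95% counting intervals. Cish was lower in the combination in each Ncr1-positive cluster, and Socs3 was high in clusters 4 and 7 of both libraries.

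**Figure D3:**
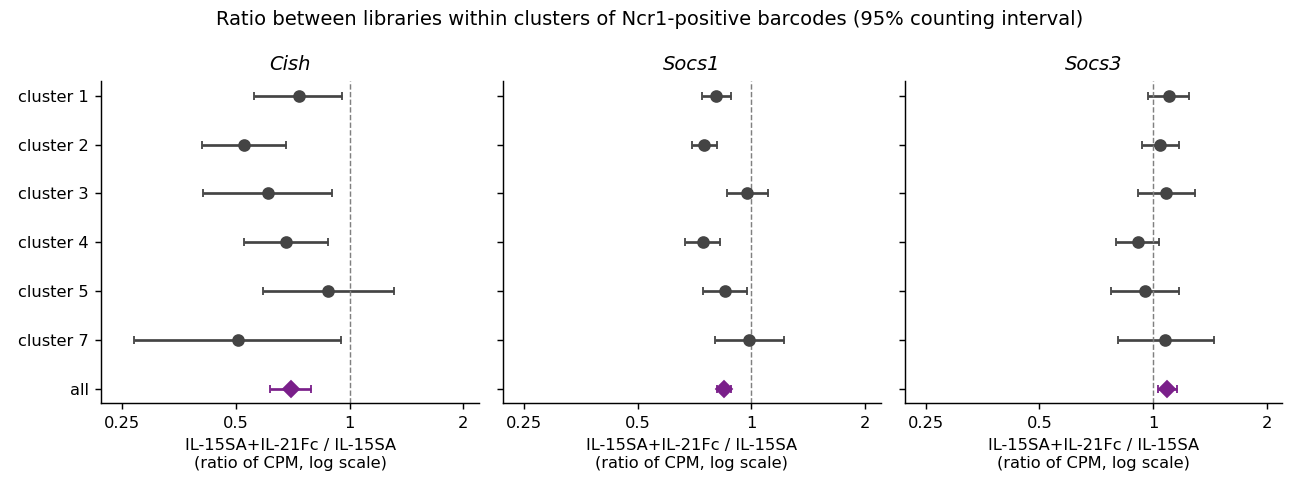
Ratio of the combination to IL-15SA for Cish, Socs1 and Socs3 within each cluster of Ncr1-positive barcodes and over all of them, on a log scale with 95% counting intervals. All 6 clusters lay below 1 for Cish and for Socs1, while those of Socs3 lay on both sides, between 0.911 and 1.10.

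Depth per cell moved with the levels, so the members were also read in 4 ranges of UMIs per cell: under 1500, from 1500, from 2500, and from 4000 UMIs up. Cish in the combination was at 21.4, 22.9, 16.5 and 10.8 CPM from the shallowest to the deepest range. In IL-15SA it was at 47.3, 28.4, 26.2 and 20.4 CPM over the same ranges. It was lower in the combination in 4 of 4 ranges, and the interval of the ratio lay below 1 in 3.

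Socs1 was at 187, 168, 155 and 123 CPM in the combination and at 204, 202, 188 and 166 CPM in IL-15SA, lower in the combination in 4 of 4 ranges. Socs3 was at 105, 98.9, 85.2 and 78.3 CPM in the combination and at 107, 99.3, 84.4 and 73.0 CPM in IL-15SA. In no range did the Socs3 interval exclude 1. All 3 genes were thus lower in deeper cells of both libraries, and what part of this comes from cell state was not tested.

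**Figure D4:**
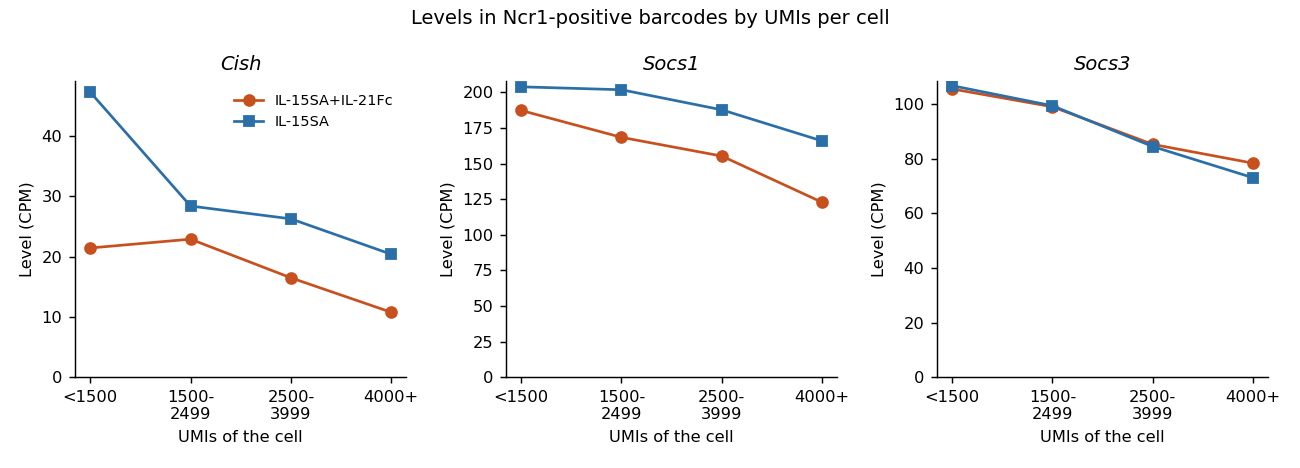
Levels of Cish, Socs1 and Socs3 in CPM in Ncr1-positive barcodes grouped by UMIs per cell, for the combination (circles) and IL-15SA (squares). Cish and Socs1 were lower in the combination in each range, and the Socs3 lines nearly coincide.

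Genes with the most similar pattern to each member were found by Pearson correlation of log2(CPM + 1) over 12 points, the 6 clusters in each library, among 4966 genes. The points share libraries and differ in depth, and no p-value is given. Socs3 was closest to Lpxn (r = 0.960), Serpina3g (0.950) and Ahr (0.939). Socs1 was closest to Kpna4 (0.941), Plscr1 (0.858) and Cysltr2 (0.838). Cish was closest to Xbp1 (0.861), the cell cycle kinase gene Cdk6 (0.854) and Anxa6 (0.851), and Socs2 to Rtf2 (0.857), Cd300lf (0.851) and Sytl3 (0.846).

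For the less abundant members the closest genes were Pglyrp2, Crlf3 and Atp11b for Socs4 (0.850 to 0.828), Bach2, Rhox5 and Iffo1 for Socs5 (0.854 to 0.796), Smarcad1, Zdhhc7 and Gfpt1 for Socs6 (0.968 to 0.930) and Trnt1, Cnot2 and Tap1 for Socs7 (0.836 to 0.831). Rhox5 is among the tumour or stroma markers. Some points held few UMIs: Socs6 had 3 UMIs in cluster 7 of the combination and 0 in cluster 7 of IL-15SA. In cluster 7 of IL-15SA Socs5 had 2 UMIs and Socs7 had 3. How far the r values of these members rest on such points was not tested. Between members r was 0.794 for Cish and Socs1, 0.765 for Socs1 and Socs3, 0.705 for Cish and Socs3 and 0.276 for Socs2 and Socs3.

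The tumour-like barcodes had another balance of the family. Tumour-like over Ncr1-positive levels are given within each library, with a member called when it differed by 2-fold in both libraries with 1 CPM added. Socs5 and Socs6 were called higher and Cish was called lower, 2 and 1 of 8 members, against 17.6% and 7.28% of 10790 genes.

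Socs5 was at 27.1 CPM in tumour-like barcodes and 7.19 CPM in Ncr1-positive barcodes of the combination, a ratio of 3.77 (2.97 to 4.76). In IL-15SA it was at 27.3 CPM in tumour-like and 4.46 CPM in Ncr1-positive barcodes, a ratio of 6.12 (4.29 to 8.61). Socs6 was at 15.5 CPM in tumour-like and 4.99 CPM in Ncr1-positive barcodes of the combination, a ratio of 3.11 (2.29 to 4.19). In IL-15SA its ratio was 2.35 (1.47 to 3.59). Both genes were higher in tumour-like barcodes of both libraries, beyond counting error. In the IL-15SA tumour-like barcodes with 0 Ncr1 UMIs, however, Socs6 had 6 UMIs and a ratio of 2.03 (0.733 to 4.52), an interval that includes 1, and with 1 CPM added it was under 2-fold there.

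Socs3 was at 185 CPM in tumour-like and 87.8 CPM in Ncr1-positive barcodes of the combination, a ratio of 2.10 (1.94 to 2.28). In IL-15SA it was at 152 CPM in tumour-like and 80.5 CPM in Ncr1-positive barcodes, a ratio of 1.88 (1.66 to 2.14), and this second ratio, under 2-fold, left it uncalled. In the tumour-like barcodes with 0 Ncr1 UMIs, 621 in the combination and 178 in IL-15SA, Socs3 was at 231 CPM in the combination and 175 CPM in IL-15SA. Its log2 ratio to the Ncr1-positive level was then 1.40 in the combination and 1.12 in IL-15SA, and with clusters at resolution 1.0 it was 1.21 in the combination and 1.09 in IL-15SA, so under both alternatives it was past 2-fold in both libraries.

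Cish was at 5.79 CPM in tumour-like and 16.5 CPM in Ncr1-positive barcodes of the combination, a ratio of 0.350 (0.224 to 0.523), and its ratio in IL-15SA was 0.470 (0.285 to 0.732). Socs1 had a ratio of 0.633 (0.571 to 0.701) in the combination and 0.682 (0.592 to 0.782) in IL-15SA, and Socs2 a ratio of 0.587 (0.403 to 0.831) in the combination and 0.599 (0.332 to 1.00) in IL-15SA. The 3 genes were lower in tumour-like barcodes, with the Socs2 interval reaching 1 in IL-15SA. With clusters at resolution 1.0 the Socs2 log2 ratio was -1.24 in the combination and -2.59 in IL-15SA, past 2-fold lower in both. With 0 Ncr1 UMIs it was -0.83 in the combination, not past 2-fold. In IL-15SA that setting left 2 Socs2 UMIs, with a ratio of 0.288 (0.035 to 1.05). Counts were low throughout, with 15 Socs2 UMIs in all IL-15SA tumour-like barcodes. Socs4 and Socs7 lay on opposite sides of 1 in the libraries, with intervals that included 1.

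NK transcripts moved with this contrast. The 15 NK markers summed to 10716 CPM in tumour-like and 41307 CPM in Ncr1-positive barcodes of the combination, and to 14894 CPM in tumour-like and 40341 CPM in Ncr1-positive barcodes of IL-15SA. The 20 tumour or stroma markers summed to 5930 CPM in tumour-like and 271 CPM in Ncr1-positive barcodes of the combination, and to 5114 CPM and 150 CPM in IL-15SA. The part of mixed RNA in the members' levels was not tested.

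**Figure D5:**
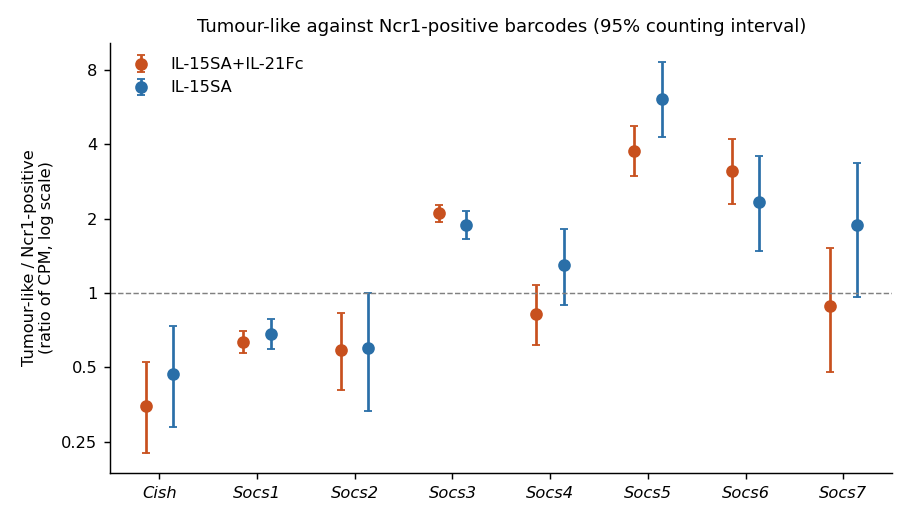
Ratio of tumour-like to Ncr1-positive levels of each member within the combination and the IL-15SA library, on a log scale with 95% counting intervals. Socs3, Socs5 and Socs6 lay above 1 and Cish and Socs1 below 1 in both libraries.

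Between libraries the tumour-like barcodes gave few UMIs. Their markers did not all keep the same level: Saa3 was at 94.7 CPM in the combination and 4.46 CPM in IL-15SA. Dcn was at 93.3 CPM and 71.9 CPM, and Col1a2 at 692 CPM and 621 CPM, in the same order. Whether this class held the same kinds of cell in both libraries was not tested. Cish had 25 UMIs in the combination and 20 in IL-15SA, which is 5.79 CPM (3.75 to 8.54) and 11.2 CPM (6.81 to 17.2) in that order, a ratio of 0.519 (0.277 to 0.985). In the barcodes with 0 Ncr1 UMIs Cish had 8 UMIs in the combination and 5 in IL-15SA. Its ratio there was 0.441 (0.127 to 1.71), an interval that includes 1. NK markers were also lower in tumour-like barcodes of the combination. Of 15 measured, 14 were below 0, with a median log2 ratio of -0.45 against -0.02 over all genes. Their part in the Cish ratio was not tested. Socs3 was at 185 CPM (172 to 198) in the combination and 152 CPM (134 to 171) in IL-15SA, a ratio of 1.22 (1.06 to 1.40). Socs1 was at 94.9 CPM (85.9 to 105) in the combination and 121 CPM (105 to 138) in IL-15SA, a ratio of 0.784 (0.664 to 0.929), but in the barcodes with 0 Ncr1 UMIs its ratio was 1.12 (0.802 to 1.60). Of the 8 members 0 were called higher and 2 lower past 1.5-fold, against 5.18% and 8.02% of 10380 genes. The interval lay above 1 for 1 member, Socs3, against 8.05% of those genes, and below 1 for 2, Cish and Socs1, against 1038 of the 10380 genes. The 2 called lower were Cish and Socs7, and Socs7 rested on 15 UMIs in the combination and 13 in IL-15SA.

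The machinery and the targets around the family were read from lists, in Ncr1-positive barcodes and by the same 1.5-fold rule. Over all 9179 measured genes the median log2 ratio was -0.002, and over the 7 measured members it was -0.015. Of the 11 measured ligase partners of the SOCS box 0 were called, with a median of -0.06. Of the cullins on the list, Cul5 was at 29.5 CPM in the combination and 32.3 CPM in IL-15SA. Its ratio was 0.912 (0.827 to 1.0045), an interval that includes 1. Cul2 was at 19.3 CPM in the combination and 25.2 CPM in IL-15SA (0.767, 0.683 to 0.861). Eloc, which encodes elongin C, was at 225 CPM in the combination and 260 CPM in IL-15SA. Of 12 other measured SOCS box genes 1 was called higher and 0 lower, with a median of 0.15.

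Of 26 measured kinases, STAT factors and receptor chains 0 were called in either direction, with a median of 0.21 and 22 of them above 0. Il21r, the IL-21 receptor, was at 21.5 CPM in the combination and 17.0 CPM in IL-15SA (ratio 1.26, 1.12 to 1.43). Il2rb, the chain that binds IL-15, was at 798 CPM in the combination and 875 CPM in IL-15SA (0.912, 0.895 to 0.929), and Il15ra at 11.9 CPM and 11.7 CPM in the same order. Stat3 was at 189 CPM in the combination and 167 CPM in IL-15SA (1.13, 1.09 to 1.18), while Stat5a and Stat5b had intervals that included 1. Jak1 was at 506 CPM in the combination and 502 CPM in IL-15SA.

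Of 16 genes listed as other inhibitors 1 was called higher and 0 lower, with a median of 0.13. The gene called was Dusp1, at 685 CPM in the combination and 375 CPM in IL-15SA. Dusp1 is a phosphatase of MAP kinases and is counted again among the immediate early genes below. No other gene of the list was called. Ptpn6, which encodes the phosphatase SHP-1, was at 106 CPM in the combination and 94.7 CPM in IL-15SA.

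Genes that STAT5 is known to induce moved unevenly: of 14 measured, 1 was called higher and 1 lower, 11 were below 0 and the median was -0.15. With 5 CPM added 0 were called higher and 1 lower. Tnfrsf9, the costimulatory receptor 4-1BB, was at 354 CPM in the combination and 566 CPM in IL-15SA, and Cdk6 at 40.3 CPM in the combination and 53.8 CPM in IL-15SA. Lta, which encodes lymphotoxin, was at 30.5 CPM in the combination and 19.7 CPM in IL-15SA, and Pim1, a kinase gene induced by STAT5, at 482 CPM and 415 CPM in the same order.

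Of 14 measured genes tied to STAT3 2 were called higher and 0 lower, with a median of 0.11. They were Maf, a transcription factor, at 41.6 CPM in the combination and 27.2 CPM in IL-15SA, and Fos, at 224 CPM and 149 CPM in the same order. Fos is counted again among the immediate early genes below. Bcl3, also tied to STAT3, was at 30.6 CPM in the combination and 22.4 CPM in IL-15SA. With 5 CPM added none of the 14 was called.

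Of 25 measured interferon response genes 11 were called higher and 0 lower, with a median of 0.43. Ifit3 was at 20.3 CPM in the combination and 5.98 CPM in IL-15SA, and Rtp4 at 75.0 CPM in the combination and 37.7 CPM in IL-15SA. Socs1, itself induced by interferon, was lower in the combination as given above. Of 20 immediate early genes 5 were called higher and 0 lower, with a median of 0.32, and Junb was at 1583 CPM in the combination and 1070 CPM in IL-15SA. Of the 5 measured ligands that act on these receptors 0 were called, and Ifng was at 306 CPM in the combination and 270 CPM in IL-15SA.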

How the data were processed

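Per the labels, a GEXSCOPE microwell kit was used. The authors deposited raw UMI counts for each gene in each called barcode, on mm10. The submitters' processing notes name cutadapt, featureCounts, Seurat version 4 and Scanpy, without roles; the sources used here give no aligner, annotation or strand setting. The series title names other treatments than the sample titles, which were followed. Of 53715 gene IDs 53620 are in GENCODE M21.

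Filters of 200 genes (minimum) and 20% mitochondrial UMIs (maximum) removed 5 combination barcodes and 0 IL-15SA barcodes. The automatic Scrublet threshold marked 1 combination cell and 2 IL-15SA cells, too few to have worked, so the 5% with the highest scores were removed, 622 in the combination and 419 in IL-15SA. Clustering used values per 10000 UMIs (2000 variable genes without the members, 30 components, 15 neighbours, Leiden resolution 0.5). A cluster was tumour-like when at least 3 tumour or stroma markers reached 5 times the median of clusters and NK markers had a median ratio under 0.67.

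UMIs were summed per class and divided by 27675947 (combination) and 26433833 (IL-15SA) in Ncr1-positive barcodes, and by 4319812 and 1793442 in tumour-like barcodes. Intervals are exact Poisson for CPM, exact conditional binomial for ratios and Clopper-Pearson for shares, at 95%. Log2 ratios of named members have nothing added; those behind calls and list medians have 1 CPM added. The ratio intervals were tested on simulated counts drawn with Poisson error alone. That check could not cover variation between cells or between libraries. All 8 members were named, with up to 4 genes per list by largest log2 ratio at 20 CPM or more, a set of key genes, and the 3 genes most similar to each member; values are printed for part of them. Members, lists and rules were chosen with earlier results of these data known. Python 3.11.15, scanpy 1.11.5, leidenalg 0.10.2, R 4.3.3 and edgeR 4.0.16 (scaling factors only) were used.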

Additional observations from a re-analysis of the deposited data

How the results depend on the processing

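No paired analysis was possible because there was 1 library for each treatment. For library ratios in Ncr1-positive barcodes 107 values moved by less than their counting interval and 5 moved by more. The 5 were Socs1 without the cell cycle cluster (log2 ratio -0.18, main -0.24), Socs3 with the same cluster weights (0.028) and the same weights of UMI ranges (0.023, main 0.13), and Socs5 thinned to 1000 UMIs (0.17) and with the same weights of UMI ranges (0.35, main 0.69). The cause was not tested. Socs1 in tumour-like barcodes reversed to 0.16 with 0 Ncr1 UMIs (main -0.35); of the 31 other values there 27 stayed and 4 moved. Of tumour-like over Ncr1-positive ratios 21 stayed and 11 moved: at resolution 1.0, with 1305 tumour-like cells in place of 2022, Socs2 in IL-15SA was -2.59 (main -0.74) and Cish in the combination -2.18 (main -1.52), and with 0 Ncr1 UMIs Socs4 in IL-15SA was -0.41 (main 0.37). Cish, Socs1, Socs3, Socs5 and Socs6 kept their sign in 14 of 14 settings, and Socs2 in 10, Socs4 in 11 and Socs7 in 11. The settings reuse counts of the same libraries, so a kept sign is not a replicate. Socs6 kept its sign although its interval, 0.663 to 1.06, included 1. Without doublet removal there were 7 clusters and at resolution 1.0 there were 13, each with 1 tumour-like. TMM factors were 1.012 for the combination and 0.988 for IL-15SA. Over all genes 205 were called higher and 46 lower; these were 82 and 24 at 20 CPM or more, 427 and 96 with no filter, and 79 and 27 with 5 CPM added. Interferon response calls were 8 with 5 CPM added, and immediate early calls 3. Cells thinned to 2000 UMIs left out 3301 combination and 1536 IL-15SA cells, and Cish was then detected in 2.95% and 4.58%. The planned restriction to the tumour-like cluster with the least Ncr1 gave no value, as a single cluster was tumour-like. Weights of UMI ranges and removal of the interferon cluster or shared barcodes were chosen after seeing the data. With 102 to 157 UMIs per library, depth limits what can be seen for Socs6 and Socs7.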
